A study of Sus scrofa with 14 samples.

Results

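Oxygen-regulated transcription factors, angiogenic peptides and glycolytic enzymes were read in the meniscus, a wedge of fibrocartilage in the knee joint, of 14 male Wuzhishan pigs aged 6 to 7 months and weighing 15 to 18 kg. In 7 pigs the tissue was taken 24 weeks after an operation on the anterior cruciate ligament, a large-animal model of osteoarthritis (OA). The other 7 pigs were examined 24 weeks after a sham operation. The members were set by name as HIF1A, EPAS1, VEGFA, ADM, TPI1, LDHA and GAPDH, and every probe whose RefSeq accession is a transcript of one of them was kept. For 6 of the 7 genes such a probe was found, and GAPDH was not analysed here. The members make up 13 of 43603 probes and 6 of the 2389 genes that carried a name. TPI1 had 5 probes, HIF1A, EPAS1 and VEGFA had 2 each, and ADM and LDHA had 1 each.

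Cells short of oxygen stabilise the alpha subunits of the hypoxia-inducible factors, which pair with a constant partner and switch on genes for blood vessel growth and for making energy without oxygen. HIF1A encodes the alpha subunit of the factor HIF-1, and EPAS1 that of HIF-2. This control acts mainly on the stability of the proteins, so that transcript levels of HIF1A and EPAS1 need not follow their activity. The inner meniscus has no blood vessels in the adult and its cells live at low oxygen, relying largely on glycolysis.

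Levels are given on a log2 scale, each array's processed signal being set relative to its own 75th percentile, so that a value below 0 lies under that percentile. A change is OA minus sham on this log2 scale, and levels of different probes are not set against each other. The OA arrays were dimmer before scaling, with a raw 75th percentile of 274 ± 125 on the OA arrays and 539 ± 82.6 on the sham arrays (SD, n = 7 each; two-sided exact permutation p = 0.0035). Probes well above background made up 78.1% ± 8.88 on the OA arrays and 91.2% ± 1.80 on the sham arrays (SD, n = 7 each; two-sided exact permutation p = 0.00058). The file headers name no slide but give a scan identifier, and arrays that share it were taken to lie on 1 slide. On that reading OA 1 lay on slide 3, OA 2 to OA 5 on slide 4 and OA 6 and OA 7 on slide 5. Sham 1 to sham 4 lay on slide 1 and sham 5 to sham 7 on slide 2. No slide held both groups. All sham arrays shared 1 scan day, OA 1 had another, and OA 2 to OA 7 shared a further one. Group therefore cannot be told apart from slide or scan day in any change below. Of 12 marker genes listed for meniscus fibrochondrocytes, 5 carried a name, and these (ACAN, SPARC, DCN, CLU and SOX9) were well above background on all 14 arrays.

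The comparison of operated with sham knees asks whether these genes differed in level. None of the 13 probes passed the threshold of 0.05 (limma, Benjamini-Hochberg adjustment over all 38818 tested probes), against 3.73% of all tested probes, 2.89% called higher and 0.848% called lower. The values of the OA and sham animals overlapped for each of the 13 probes, whereas 1.73% of all tested probes had groups that did not overlap. The change was negative for 12 of the 13 probes and positive for the brightest TPI1 probe. An unadjusted p under 0.05 was reached by 1 of the 13 probes, that same TPI1 probe, against 19.6% of all tested probes. The probes of a gene share their target and are not replicates, and with 7 animals per group the intervals were wide.

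**Figure D1:**
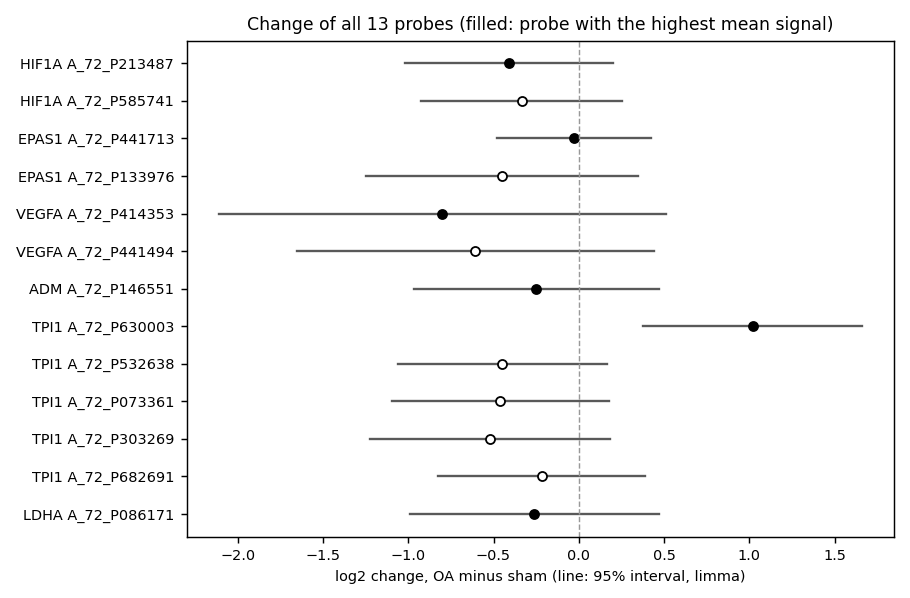
Log2 change, OA minus sham, of each of the 13 probes (horizontal axis, log2 units) with its 95% interval from limma; filled points mark the probe with the highest mean signal of each gene. The interval of TPI1 probe A_72_P630003 runs from 0.38 to 1.66, and those of the other 12 probes include 0.

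HIF1A transcript was well above background on all arrays and varied within both groups more than it differed between them. On probe A_72_P213487 the OA animals had a lowest, median and highest level of 1.84, 3.17 and 3.31, against 2.67, 3.12 and 4.12 in the sham animals. The OA animals fell into 2 sets, with OA 2, OA 3 and OA 7 at 1.84 to 2.20 and OA 1, OA 4, OA 5 and OA 6 at 3.17 to 3.31, while sham 2 stood above all other animals of either group. The change was -0.41 ± 0.29 (SE, n = 7 per group; 95% interval -1.02 to 0.20; limma adjusted p = 0.46). The second probe, A_72_P585741, had levels of -0.53, 0.57 and 1.09 in the OA animals and 0.29, 0.55 and 1.52 in the sham animals, and gave -0.34 ± 0.28 (limma adjusted p = 0.54). Both probes ordered the animals nearly alike, with Pearson's r of 0.97 in OA and 0.97 in sham (n = 7 each). In whole tissue, fewer cells of a type and less RNA per cell cannot be told apart.

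EPAS1, read by its brighter probe, had the smallest spread across sham animals of the 6 genes' brightest probes, and a wider one in OA. Its brighter probe, A_72_P441713, had a lowest, median and highest level of -2.41, -1.94 and -0.93 in the OA animals, against -1.96, -1.81 and -1.36 in the sham animals. The sham values lay wholly inside the OA range, with OA 3 and OA 2 lowest and OA 6 and OA 1 highest. The SD was 0.51 in OA and 0.20 in sham. Of the 2258 named genes tested, 57.6% had a lower SD than EPAS1 in OA and 5.89% in sham. The difference in spread was not tested. The change was -0.03 ± 0.21 (SE, n = 7 per group; 95% interval -0.48 to 0.42; limma adjusted p = 0.96). Its sign was positive at 0.27 with normexp background correction and at 0.04 with the slide as a random block. The dimmer probe, A_72_P133976, had an SD of 1.00 in OA and 0.48 in sham and was well above background on 5 of 7 OA arrays and 7 of 7 sham arrays. It gave -0.45 ± 0.38 (limma adjusted p = 0.54), and 0.51 past the threshold with normexp correction (limma adjusted p = 0.012), a setting in which 18382 of all tested probes passed.

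**Figure D2:**
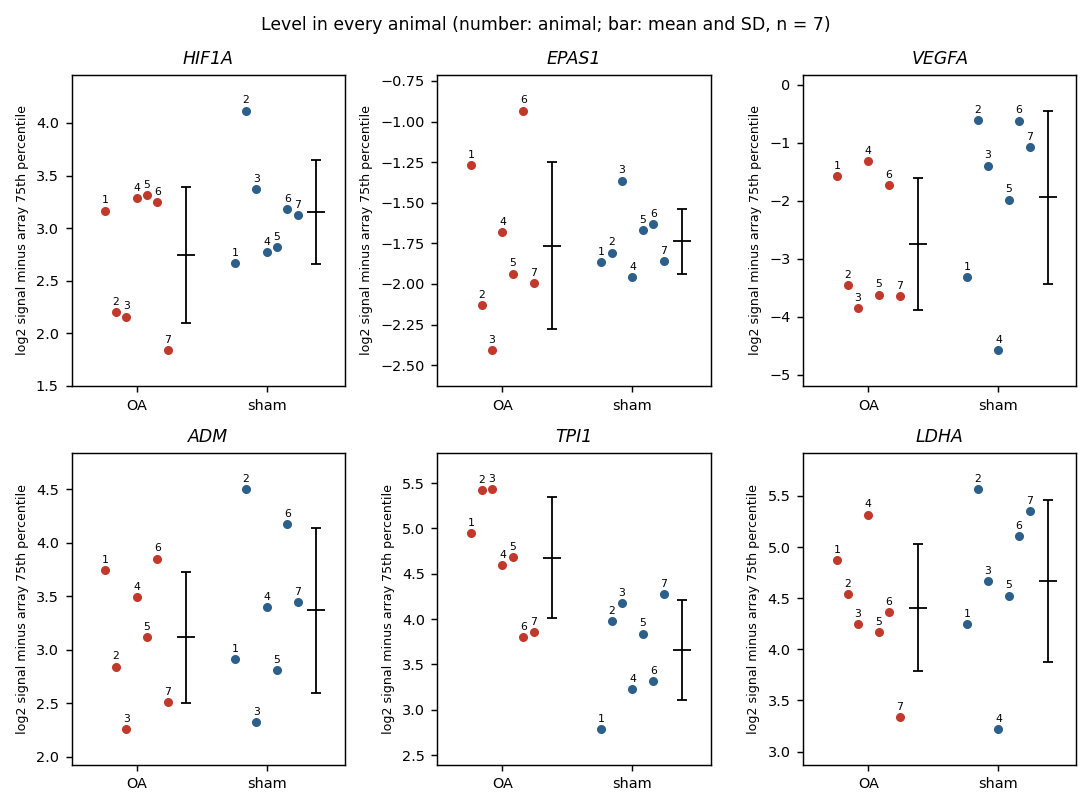
Level of the brightest probe of each gene in every animal (vertical axis, log2 signal minus the array's 75th percentile; each panel has its own scale). Points are animals with their numbers, OA left and sham right, and the bars give the mean and SD of 7 animals. The groups overlap in every panel, VEGFA spans the widest range, and sham 2 is the highest sham animal for HIF1A, VEGFA, ADM and LDHA.

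VEGFA, the main growth factor for new blood vessels, varied more between animals than the other 5 genes when each was read by its brightest probe. On probe A_72_P414353 the OA animals had a lowest, median and highest level of -3.85, -3.46 and -1.32, a 5.78-fold range, against -4.58, -1.40 and -0.62 in the sham animals, a 15.6-fold range. OA 1, OA 4 and OA 6 stood apart at -1.73 to -1.32 from OA 2, OA 3, OA 5 and OA 7 at -3.85 to -3.46. Among the sham animals, sham 4 and sham 1 were low and sham 2 and sham 6 were highest and nearly equal. The lowest animal of all was thus a sham animal on this probe, whereas on the dimmer probe described below it was OA 3, at -5.34 against -4.80 for the lowest sham animal. The SD of VEGFA, 1.1 in OA and 1.5 in sham, exceeded that of 94.3% of the named genes in OA and 98.7% in sham. With this spread the change of -0.80 ± 0.62 had a 95% interval of -2.11 to 0.51 (SE, n = 7 per group; limma adjusted p = 0.51), which spans changes in either direction. The dimmer probe, A_72_P441494, was well above background on 5 of 7 OA and 7 of 7 sham arrays and gave -0.61 ± 0.49 (limma adjusted p = 0.53). It followed the first across animals with r = 0.92 in OA and 0.93 in sham (n = 7 each).

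ADM encodes adrenomedullin, a secreted peptide that widens blood vessels and acts on endothelium. Its single probe, A_72_P146551, had a lowest, median and highest level of 2.26, 3.12 and 3.85 in the OA animals and 2.32, 3.40 and 4.51 in the sham animals. OA 3 was lowest and OA 6 highest in OA, sham 3 lowest and sham 2 highest in sham. The ranges shared their lower part, while sham 2 and sham 6 lay above every OA animal. The change was -0.25 ± 0.34 (SE, n = 7 per group; 95% interval -0.97 to 0.47; limma adjusted p = 0.73). It was -0.06 without sham 2 and -0.42 without sham 3.

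TPI1, triosephosphate isomerase, interconverts both fragments of a split sugar, so that each can go on through glycolysis. Its 5 probes did not give 1 answer, and whether any of them also reads another transcript was not analysed here, so that each is TPI1 by its accession alone. On the brightest, A_72_P630003, the OA animals had a lowest, median and highest level of 3.80, 4.68 and 5.44, against 2.79, 3.84 and 4.28 in the sham animals. All 7 OA animals lay above the sham mean, but OA 6 and OA 7, at 3.80 and 3.86, lay within the sham range. The difference of 1.02 ± 0.30, or 2.03-fold (SE, n = 7 per group; 95% interval 0.38 to 1.66), had a limma adjusted p of 0.073 and did not pass. Its signal before scaling was 3777 to 8701 on the OA arrays with a median of 6953, and 4134 to 9201 on the sham arrays with a median of 6594.

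The other 4 TPI1 probes lay on the opposite side of 0. Their changes were -0.45 ± 0.29 (A_72_P532638), -0.46 ± 0.30 (A_72_P073361), -0.52 ± 0.33 (A_72_P303269) and -0.22 ± 0.29 (A_72_P682691), with limma adjusted p from 0.41 to 0.72. The median of these 4 probes had a lowest, median and highest value of -0.96, -0.19 and 0.30 in the OA animals and -0.69, 0.04 and 1.5 in the sham animals. The 4 probes ordered the animals alike, with r among themselves of 0.84 to 1.00 in OA and 0.97 to 1.00 in sham (n = 7 each). Against A_72_P630003 their r was 0.01 to 0.48 in OA and 0.71 to 0.77 in sham. In OA the brightest probe thus followed a course of its own across animals: OA 3 had its highest level there and the second lowest on A_72_P532638, A_72_P073361 and A_72_P303269.

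The value of A_72_P630003 moved with slides and array brightness. With the raw 75th percentile of each array as a covariate it was -0.07 (limma adjusted p = 0.98), where the other 4 TPI1 probes gave -1.34 to -0.999 (adjusted p from 0.40 to 0.53), and without slides 3 and 4, which hold the 5 dimmest arrays, it was 0.17 (adjusted p = 0.91). It passed the threshold without slide 5, at 1.36 (adjusted p = 0.015), without OA 6, at 1.17 (adjusted p = 0.040), without OA 7, at 1.16 (adjusted p = 0.046), and with normexp background correction, at 0.85 (adjusted p = 0.011). Of all 38818 tested probes, 2555 passed without slide 5, 1589 without OA 6, 1435 without OA 7 and 18382 with normexp. With the brightness covariate 4 passed, and without slides 3 and 4 it was 195. In the fit with none of these changes 1449 passed. The part of brightness in the difference on A_72_P630003 was not tested apart from these fits.

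**Figure D3:**
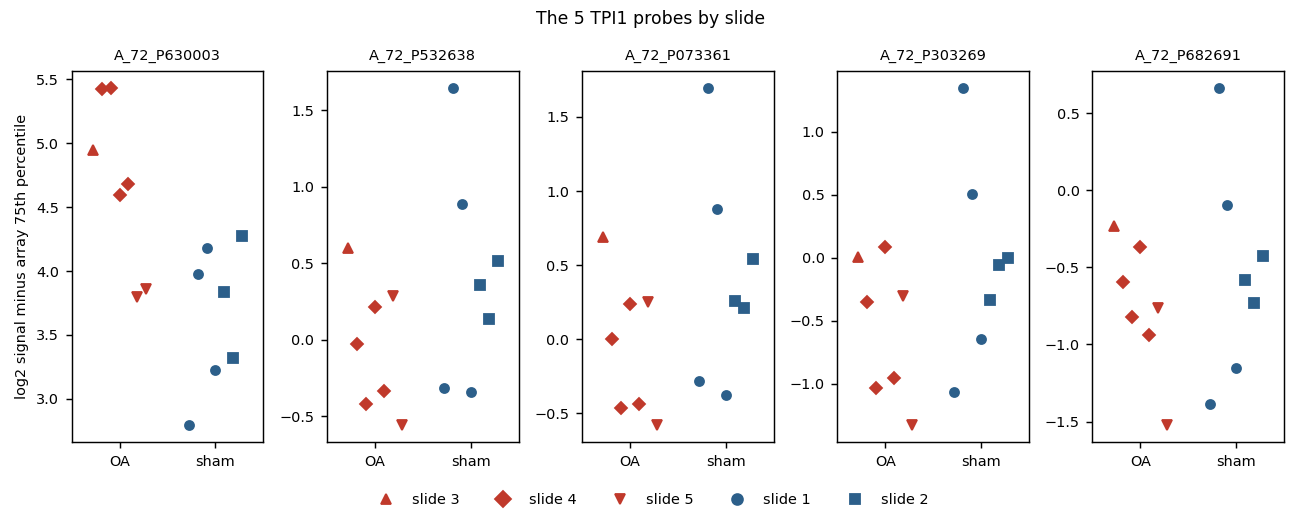
Level of the 5 TPI1 probes in every animal (vertical axis, log2 signal minus the array's 75th percentile; each panel has its own scale), OA left and sham right, with a marker shape for each slide. On A_72_P630003 the OA animals of slides 3 and 4 lie above all sham animals and those of slide 5 lie among them; on the other 4 probes the groups overlap.

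LDHA encodes the lactate dehydrogenase subunit that favours turning pyruvate into lactate, the last step of glycolysis without oxygen. Probe A_72_P086171 had a lowest, median and highest level of 3.34, 4.36 and 5.32 in the OA animals, against 3.22, 4.67 and 5.57 in the sham animals. OA 7 was lowest and OA 4 highest in OA, sham 4 lowest and sham 2 highest in sham, and the ranges nearly coincided. The change was -0.26 ± 0.35 (SE, n = 7 per group; 95% interval -0.99 to 0.47; limma adjusted p = 0.72). It was -0.08 without OA 7 and -0.50 without sham 4, -0.04 without slide 5, and -1.32 with array brightness as a covariate (adjusted p = 0.38).

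Co-variation asks whether animals high for one of these genes were high for another, within a group. On their brightest probes HIF1A and VEGFA each split the OA animals into 2 sets, so no pooled r was computed for the 9 OA pairs that involve them. The 3 OA animals high for VEGFA (OA 1, OA 4 and OA 6) were all among the 4 high for HIF1A, and OA 5, the highest for HIF1A, was in the low set for VEGFA. The second probes of both genes left no gap wider than 0.5 of the OA range, and pairs were not computed with them. That left 6 pairs in OA and 15 in sham, 21 in all, tested by exact permutation over 5040 pairings with Benjamini-Hochberg adjustment over the 21. A positive r was found for 4 of the 6 OA pairs and for 13 of the 15 sham pairs, with a median r of 0.50 in sham. After adjustment 2 pairs passed, VEGFA with LDHA in sham and EPAS1 with ADM in OA.

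VEGFA, on its brightest probe, and LDHA ordered the sham animals almost identically. Both were lowest in sham 4, followed by sham 1, sham 5 and sham 3, and highest in sham 2, with sham 6 and sham 7 trading places. The second VEGFA probe followed that order less closely, rising from sham 1 through sham 4, sham 5, sham 7, sham 3 and sham 2 to sham 6. All values of VEGFA below are from the brightest probe. Pearson's r was 0.95 (n = 7; two-sided exact permutation p = 0.00099, adjusted p = 0.021), and Spearman's rho was 0.96 (exact permutation p = 0.0028, adjusted p = 0.029). Without sham 1 and sham 4, the animals farthest from the median of VEGFA, r was 0.85 (exact permutation p = 0.075). After each slide's mean was removed r was 0.95 (exact permutation p = 0.021). Neither passed after adjustment over 21 pairs. With so few orderings a pair could not pass on its own there, whatever its values. Of the named genes other than VEGFA, 0.0887%, LDHA itself included, had an r with VEGFA in sham at least as high as that of LDHA. In OA the highest VEGFA and the highest LDHA both belonged to OA 4, but r was not computed there.

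EPAS1, on its brighter probe, and ADM shared their order in the OA animals: OA 3 lowest, then OA 2 and OA 7 in either order, then OA 5, OA 4, OA 1 and OA 6. Pearson's r was 0.93 (n = 7; two-sided exact permutation p = 0.0022, adjusted p = 0.023) and Spearman's rho 0.96 (exact permutation p = 0.0028, adjusted p = 0.029). Without OA 1 and OA 6 r was 0.89 (exact permutation p = 0.050), and with slide means removed, over the 6 animals that share a slide, it was 0.99 (exact permutation p = 0.021). Neither of these passed after adjustment, where again a pair could not pass on its own with so few orderings. Of the named genes other than EPAS1, 0.399%, ADM itself included, had an r with EPAS1 in OA at least as high as that of ADM. In sham the same pair had an r of -0.41 (n = 7; exact permutation p = 0.37, adjusted p = 0.52), and rho was -0.21. The difference between the groups was not tested.

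HIF1A itself went with VEGFA and LDHA in sham less closely than these did with each other, though that difference was not tested. The r of HIF1A with VEGFA was 0.70 (n = 7; exact permutation p = 0.073, adjusted p = 0.41) and rho was 0.86 (adjusted p = 0.17). With LDHA the r of HIF1A was 0.71 (exact permutation p = 0.079, adjusted p = 0.41) and rho was 0.82 (adjusted p = 0.18). Without sham 1 and sham 2 these r values were 0.73 and 0.65, with slide means removed they were 0.90 and 0.87, and after quantile normalization they were 0.45 and 0.57. Sham 2 recurred as the highest sham animal, on the brightest probes of HIF1A, VEGFA, ADM and LDHA and on 4 of the 5 TPI1 probes. On the second VEGFA probe sham 6 was highest, at -1.89 against -2.10 for sham 2. The array of sham 2 had the lowest raw 75th percentile of the sham arrays, 418. Before scaling, sham 6 exceeded sham 2 for VEGFA (404 against 272), ADM (11242 against 9493) and LDHA (21426 against 19842). Sham 2 stayed highest for HIF1A and on the same 4 TPI1 probes. With the median of the other 4 TPI1 probes, a choice made after the values were seen, r of TPI1 with HIF1A in sham was 0.97, against 0.56 with the brightest probe. That same median gave an r with LDHA in OA of 0.88, against 0.38 with the brightest probe.

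**Figure D4:**
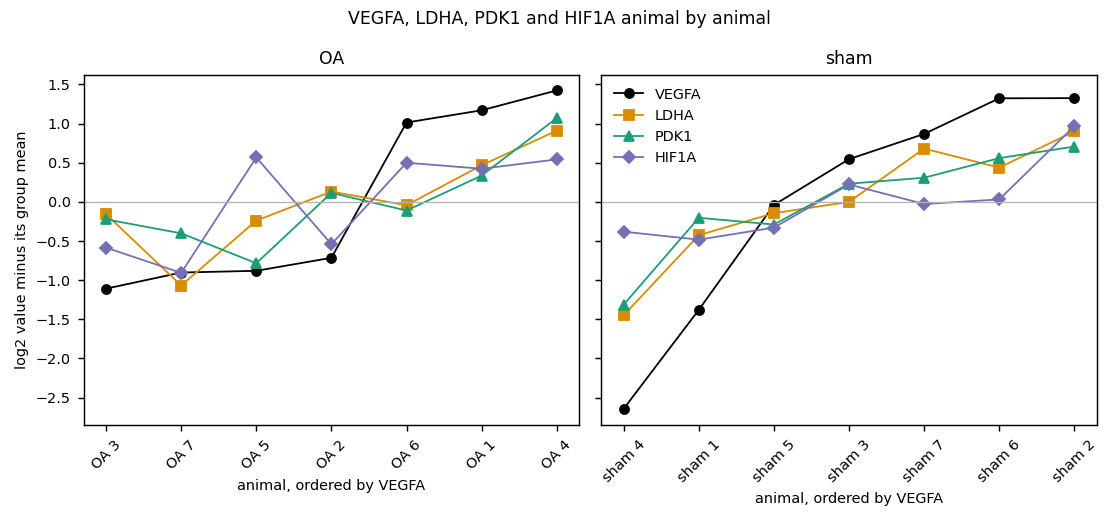
Deviation of VEGFA, LDHA, PDK1 and HIF1A from their group means (vertical axis, log2 units) in each animal, OA left and sham right, with animals ordered by VEGFA. In sham LDHA and PDK1 climb with VEGFA from sham 4 to sham 2; in OA all 4 genes are high in OA 4 and low in OA 7, and HIF1A departs from the rest in OA 5.

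Among the named genes that are no members, the ones whose course across the 14 animals was most like that of each member were found from deviations from the group mean, over 2251 genes outside the members. PDK1, the kinase that shuts pyruvate out of mitochondria and a known hypoxia target, was first for VEGFA (r = 0.87) and second for LDHA (r = 0.90). In sham alone its r with VEGFA was 0.95 and with LDHA 0.96. The second PDK1 probe gave 0.83 with VEGFA and 0.86 with LDHA. PDK1 itself had a lowest, median and highest level of -0.50, 0.18 and 1.36 in OA, with OA 5 lowest and OA 4 highest, and -0.96, 0.58 and 1.05 in sham, with sham 4 lowest and sham 2 highest. AGPAT4 (0.81) and CHEK2 (0.80) came next for VEGFA, and SGCD (0.92) and HAPLN1 (0.87) stood beside PDK1 for LDHA. HAPLN1 is the link protein that holds aggrecan to hyaluronan.

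HIF1A was followed most closely by VDAC1, a channel of the mitochondrial outer membrane (0.91), by ADIPOR1, an adiponectin receptor (0.90), and by CD81, a tetraspanin (0.87). For EPAS1 the leading genes were DLK2 (0.83), SLC9A3R2 (0.82) and MMP9, a gelatinase (0.82). For ADM they were PTGES, the inducible prostaglandin E synthase (0.79), FUT8, a fucosyltransferase (0.78), and DIABLO (0.77). The brightest TPI1 probe was nearest to SLC52A2 (0.96), COL5A1, a chain of type V collagen (0.94), and LOC100156694 (0.92), none of them on the glycolysis list. These r values rank genes across the same 14 arrays, share their scaling and slides, and carry no test.

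Among the other genes of the pathway, the following were chosen after their values were seen. EDN1, which encodes the vessel-constricting peptide endothelin, ran opposite to VEGFA (r = -0.82) and LDHA (r = -0.85) across the 14 animals, with sham 4 highest and sham 2 lowest in sham. PGK1, a glycolytic kinase, went with LDHA on all 6 of its probes, at r of 0.80 to 0.90. HK2, the inducible hexokinase, had an r of 0.70 with HIF1A and with VEGFA and 0.71 with LDHA, and STC2, a secreted glycoprotein, an r of 0.85 with HIF1A. The whole lists had medians nearer to 0. The 12 other glycolysis genes had a median r with HIF1A of 0.32, against 0.08 for all named genes, and a median r with LDHA of 0.14, against 0.05. Their median r with the brightest TPI1 probe was 0.22, against 0.02, and 9 of the 12 were positive, against 52.4% of all named genes. The 16 other hypoxia-inducible targets had a median r with HIF1A of -0.03 and with VEGFA of 0.07, against 0.07 for all named genes with VEGFA.

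In the comparison of the groups, no other gene of the pathway passed either, where 3.23% of all 2258 named genes did (limma, Benjamini-Hochberg adjustment). An unadjusted p under 0.05 was reached by 3 genes of the glycolysis list, by 0 of the other 4 pathway lists, and by 346 of all named genes. Of 17 listed regulators 4 were tested and 0 passed: besides HIF1A and EPAS1, ARNTL, a relative of the constant partner, stood at -0.32 ± 0.26 and HSP90AA1, a chaperone of the alpha subunit, at 0.02 ± 0.14. Of 33 listed hypoxia-inducible targets 18 were tested and 0 passed, with 8 positive changes and a median of -0.06. CXCL12, a chemokine, stood at -0.57 ± 0.30 (limma adjusted p = 0.31) and TFRC, the transferrin receptor, at -0.76 ± 0.42 (adjusted p = 0.33). Of 23 ligands and receptors of the vascular growth factor and adrenomedullin systems 9 were tested and 0 passed, with a median of 0.17. Among these, ANGPT2, a ligand that loosens vessels, stood at 0.48 ± 0.24 (adjusted p = 0.27) and RAMP1, a partner of the calcitonin-like receptor, at 0.31 ± 0.16 (adjusted p = 0.31). RAMP2 and CALCRL, which form an adrenomedullin receptor, stood at -0.13 ± 0.21 and -0.02 ± 0.43. RAMP3, of the same list, stood at 0.38 ± 0.20 (limma adjusted p = 0.31).

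Of 38 listed genes of glycolysis and lactate 14 were tested and 0 passed, with 9 positive changes and a median of 0.06, against 0.00 for all named genes. TPI1, ENO3 and SLC2A4 had an unadjusted p under 0.05. ENO3, the muscle form of enolase, stood at -0.72 ± 0.30 (limma adjusted p = 0.19), and SLC2A4, the insulin-responsive glucose transporter, at 0.55 ± 0.23 (adjusted p = 0.20). The other probes of ENO3 gave -0.33 and -0.27, and those of SLC2A4 gave 0.04 and -0.03. PGK1 stood at 0.40 ± 0.31 on its brightest probe, with its 6 probes running from -0.42 to 0.40, HK2 at -0.65 ± 0.70, GPI at 0.09 ± 0.24 and PFKM at 0.05 ± 0.18. PGK2 was not tested, since it was well above background on 0 OA arrays and 1 sham array. Of 12 genes of pyruvate use and gluconeogenesis 6 were tested and 0 passed, with a median of 0.13. G6PC, glucose-6-phosphatase, stood at -0.67 ± 0.34 and PCK1, an enzyme of glucose synthesis, at 0.73 ± 0.44 (limma adjusted p = 0.29 and 0.37).

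Markers of other cells a dissected meniscus can hold were summed for comparison, as signal relative to the array's 75th percentile. The 5 fibrochondrocyte markers summed to 497 to 1026 on the OA arrays and 395 to 856 on the sham arrays. This sum mostly reads the probes of DCN, ACAN and SPARC, and those of CLU and SOX9, which were dimmer, add little to it. The changes were 0.01 for DCN, 0.24 for ACAN and 0.25 for SPARC, and -1.07 for CLU and -0.43 for SOX9, none past the threshold. The 3 endothelial markers named here (of 6) summed to 14.5 to 37.0 in OA and 7.48 to 37.8 in sham, and the 4 macrophage markers (of 6) to 34.4 to 62.4 in OA and 13.7 to 69.3 in sham. Pericyte and smooth muscle markers (4 of 6) summed to 34.2 to 94.8 in OA and 36.3 to 91.7 in sham. All of these ranges overlapped.

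The dimmer lists overlapped as well. Neutrophil markers (3 of 4) summed to 0.32 to 1.90 in OA and 0.22 to 0.40 in sham, skeletal muscle markers (7 of 9) to 1.14 to 2.45 in OA and 1.03 to 2.67 in sham, adipocyte markers (6 of 6) to 5.89 to 32.6 in OA and 4.76 to 20.1 in sham, and 1 of 4 red cell markers to 0.08 to 0.19 in OA and 0.07 to 0.12 in sham. LEP, the fat cell hormone leptin, rose by 0.74 ± 0.16 (limma adjusted p = 0.021) and TNNI1, a slow muscle troponin, by 0.71 ± 0.18 (adjusted p = 0.041). The second LEP probe gave -0.34. Of the genes that did not pass, the neutrophil genes S100A12 and S100A9 stood at 1.27 ± 0.37 (adjusted p = 0.065) and 0.76 ± 0.29 (adjusted p = 0.15), and MYH7, a slow muscle myosin, at 0.97 ± 0.29 (adjusted p = 0.075). Of the markers tested, 3 of 5 for adipocytes, 5 of 7 for skeletal muscle and 3 of 3 for neutrophils had a positive change. The others went the opposite way without passing: CIDEC at -0.34 and ADIPOQ at -0.18 for adipocytes, TNNT3 at -0.44 and TNNT1 at -0.31 for muscle. PLIN1, which coats fat droplets, was well above background on 2 of 7 OA arrays and 0 of 7 sham arrays.

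Across the sham animals, 60 relations of the 6 genes with these sums and with array measures were computed, and none passed (smallest adjusted p = 0.43). The raw 75th percentile had an r of -0.83 with HIF1A (n = 7; exact permutation p = 0.017; rho = -0.61), -0.39 without sham 2 and sham 3 and -0.82 with slide means removed. With TPI1 on A_72_P630003 its r was -0.77 (exact permutation p = 0.055; rho = -0.71), -0.79 without the same animals and -0.89 with slide means removed. EPAS1 had an r of 0.78 with the pericyte and smooth muscle sum (exact permutation p = 0.028, rho = 0.71). HIF1A had an r of -0.78 with the macrophage sum (exact permutation p = 0.031, rho = -0.68). TPI1 on A_72_P630003 had an r of 0.75 with the fibrochondrocyte sum (exact permutation p = 0.052, rho = 0.75). That sum had an r of 0.69 with VEGFA (exact permutation p = 0.083, rho = 0.61) and 0.75 with LDHA (exact permutation p = 0.043, rho = 0.71). Without sham 4 and sham 6 the values for VEGFA and LDHA were 0.93 and 0.83, and with slide means removed 0.74 and 0.80. With VEGFA the raw 75th percentile had an r of -0.56 (exact permutation p = 0.20, rho = -0.43), and with LDHA -0.64 (exact permutation p = 0.11, rho = -0.57). Without sham 2 and sham 3 these were -0.37 and -0.54, and with slide means removed -0.78 and -0.83. The share of probes well above background had an r of -0.77 with VEGFA and -0.76 with LDHA (exact permutation p = 0.067 and 0.082). There rho was -0.21 and -0.29, and r without sham 3 and sham 4 was -0.10 and -0.17. The part of cell makeup and of brightness in the shared course of VEGFA and LDHA was not tested.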

How the data were processed

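Total RNA was labelled with Cy3, 1 array per animal, per the labels' protocols. Per the file headers, the deposited scanner files hold intensity values from the program Agilent Feature Extraction (version 11.0.1.1), background-subtracted but not normalized between arrays. The authors' deposited series table holds log2 values and was used as an alternative only; its columns share their quantiles, and the sources used here do not give its making.

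From each array's processed signal, log2 minus the 75th percentile over non-control probes was computed. Marked spots (82 over all arrays) were set missing, no spot was saturated (0), and spots of 50 repeated probes were averaged. Accessions were matched without version to RefSeq (5461 of 5779 matched). Probes that 7 or more of 14 arrays read as well above background were tested with limma 3.58.1 (R 4.3.3; lmFit, eBayes, two-sided), with no covariate, Benjamini-Hochberg adjustment over 38818 probes and 95% intervals from that fit. Normexp (offset 50) used the median signal, since the scanner files hold no mean signal. Correlations used exact permutation on the absolute r (Python 3.11.15, scipy 1.17.1); animals were split into 2 sets where a gap exceeded 0.5 of the range. Both procedures were tested on simulated data. Arrays were taken as separate animals, and their number limits the precision.

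The members and lists were chosen with earlier results of these data known. Named were all member probes, called list genes, the 2 smallest p of each of the 5 pathway lists and the 3 genes most like each member; other genes, such as PGK1, HK2, STC2, EDN1, S100A12, S100A9 and MYH7, were named after their values were seen. Alternatives were other scalings, filters, background correction, array weights, variance priors, the authors' table, blocks for replicate number, slide and scan day, array brightness, and arrays or slides left out. Same-numbered arrays deviated together with r of -0.19 to 0.27, and 1 of 7 correlated best with its own number, so the numbers were not taken to pair animals. Sequences and coordinates were not used here.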

Additional observations from a re-analysis of the deposited data

How the results depend on the processing

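Of 401 changes of member probes recomputed under alternatives, 382 kept their direction and their side of the threshold. Another 15 reversed (1 of them, EPAS1 on A_72_P133976 with normexp, also newly passing), and 4 newly passed with their direction kept. No call could be lost, since the count of member probes past the threshold was 0 before any alternative. Of all 38818 tested probes, 4 passed with array brightness as a covariate and 18 with slide as a random block. Staying under the threshold says little about the members in those fits. The brightest TPI1 probe (1.02) gave 0.85 with normexp correction and 1.36 without slide 5, both past the threshold, -0.066 with array brightness as a covariate, and 0.87 to 1.17 leaving out 1 array. EPAS1 on A_72_P441713 (-0.03) turned to 0.27 with normexp, 0.037 with slide as a random block, 0.20 with brightness, 0.27 without slides 3 and 4, 0.34 without slide 4, and -0.17 to 0.079 leaving out 1 array (0.033 without sham 3 and also without OA 2, 0.000025 without OA 5, 0.0097 without OA 7). EPAS1 on A_72_P133976 turned to 0.51 with normexp and 0.010 without slide 4, VEGFA on A_72_P441494 to 0.32 with normexp, and ADM to 0.0019 without slide 4. Leaving out 1 array, HIF1A on A_72_P213487 ran from -0.50 (without OA 5) to -0.25 (without sham 2), VEGFA on A_72_P414353 from -1.24 (without sham 4) to -0.58 (without sham 2), ADM from -0.42 to -0.06 and LDHA from -0.50 to -0.08. With brightness as a covariate these probes of HIF1A and VEGFA gave -0.90 and -1.59, ADM -0.33 and LDHA -1.32, none past the threshold. In that fit 5 of the 13 member probes, LDHA and the 4 dimmer TPI1 probes, had an unadjusted limma p under 0.05. So did 3429 of all 38818 tested probes. Normexp shifted the median of all tested probes by 0.39. Relative to its median of 0.34, TPI1 stood at 0.51 on the brightest probe and at -0.78 to -0.38 on the other 4. On that footing EPAS1 stood at -0.07 and 0.17, VEGFA at -0.45 on A_72_P414353 and -0.01 on A_72_P441494, and HIF1A at -0.90 and -0.67. ADM stood at -0.82 and LDHA at -0.75. Not set against that median, VEGFA on A_72_P414353 gave -0.11 with normexp. The count of member probes past the threshold, 0, was 2 with normexp, 1 without slide 5 and 0 to 1 leaving out 1 array. Of all 38818 tested probes, 18382 passed with normexp and 2555 without slide 5. Leaving out OA 6 or OA 7, which each gave 1 member probe, 1589 and 1435 of all tested probes passed. With the replicate number as a block the member count stayed 0 (TPI1 1.02, limma adjusted p = 0.11), while calls over all probes went to 335, against 1449 without the block. Both pairs that passed had no call without the 2 farthest animals (VEGFA with LDHA 0.85, EPAS1 with ADM 0.89) and with slide means removed (0.95 and 0.99). These settings have fewer orderings to permute, too few for a pair to pass on its own. The count of 2 pairs was 0 in each and 4 with the median of the other 4 TPI1 probes, chosen after seeing the data. Uncalled pairs whose sign turned were, in OA, EPAS1 with TPI1 (0.66 with the other probes), ADM with TPI1 (0.38 without 2 animals, 0.81 with the other probes) and TPI1 with LDHA (-0.46 without 2 animals, -0.38 with slide means removed). In sham they were HIF1A with EPAS1 (-0.14 with quantile normalization and with the authors' table), HIF1A with ADM (-0.15 without 2 animals), VEGFA with TPI1 (-0.30 without 2 animals) and ADM with TPI1 (0.036 as rho, 0.027 without 2 animals, 0.39 with the other probes). Apart from the fewer orderings, the cause of these moves was not tested. EPAS1 on A_72_P133976 and VEGFA on A_72_P441494 had no value under the filter on all 14 arrays.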
